A study of Drosophila melanogaster with 120 samples.

Results

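The transcripts described here were higher in newly emerged flies than over the later days pooled, by at least 4-fold, in head and abdomen alike. They were chosen by a rule on the measured values: in each tissue, the median of the 48 arrays of days 5, 15, 30 and 50 minus the median of the 12 arrays of day 1 had to be at or under -2 on the log2 scale. The rule took 138 of the 16637 transcripts on the array. Taken alone, it would have kept 211 transcripts in heads and 610 in abdomens, so 73 passed in head and not in abdomen, and 472 in abdomen and not in head. Because the fall after day 1 selected the members, its size is given as a description, without a test.

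The 120 arrays measured the head or the abdomen of Drosophila melanogaster females that had never mated, aged 1, 5, 15, 30 or 50 days and kept at 25 °C. In the selection populations, longer reproductive life had been selected by putting off mating, at first to day 28 and later to day 40. Control populations had been mated at 14 days of age. Each regime had 3 populations, set up in pairs of selection and control from 1 ancestral stock, and was sampled after 35 generations with 2 biological replicates. Each of the 20 combinations of tissue, regime and day thus had 6 arrays. No flies were treated with an agent. The labels do not say how many flies made up a sample. In a whole head or abdomen, fewer cells of a type and less RNA per cell cannot be told apart.

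A fly that has just emerged from the pupal case is still finishing its adult body. Its cuticle is being hardened, tanned and thickened under the action of hormones such as bursicon and ecdysone, its flight muscles and nervous system are maturing, and fat body cells carried over from the larva are being removed. Transcripts serving these tasks are known to be high around emergence and to fade in the mature adult. The files name transcripts by FlyBase transcript numbers (FBtr) only. Synonyms in the RefSeq gene table tied 16 of the 16637 transcripts to a single gene and 0 of the 138 members, so the members are given by number and no role can be stated for them. For the same reason the levels of marker genes of head and abdomen could not be read, and the tissue labels were not checked in that way.

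Several arrays stood apart, and they bear on what follows. In heads, the median level over the 138 transcripts was 8.67 to 9.33 (log2 intensity) in 45 of the 48 arrays of days 5 to 50, against 12.35 to 12.76 in 8 of the 12 arrays of day 1. Of the other heads, 5 lay on the side opposite to their label. The day-30 head of selection population 3, biological replicate 2, stood at 12.72, the day-30 head of control population 3, replicate 1, at 12.15, and that of control population 2, replicate 1, on day 50 at 12.43. Both day-1 heads of control population 3 were low, at 8.78 and 8.87. In these 2 heads, 135 and 131 of the 138 transcripts lay within the range of the 45 later heads. In the 3 late heads that were high, 112, 85 and 107 transcripts, in the order given above, lay within the range of the 8 day-1 heads. A second reading used 836 transcripts outside the members with a later minus day-1 difference of at least 1 either way. The later and day-1 profiles of the other population numbers were set to 0 and 1. In the same order the 3 late heads stood at 1.07, 0.96 and 1.26, and the 2 low day-1 heads at -0.05 and -0.04.

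Control population 1 on day 1 lay in between in both tissues. Its heads stood at 11.02 in both replicates. Its abdomens stood at 10.98 and 10.83, against 12.33 to 12.68 in the other 10 day-1 abdomens. On the scale from transcripts outside the members, this population stood at 0.47 and 0.46 in heads. In abdomens, with 3399 such transcripts, it stood at 0.62 and 0.58. The 48 abdomens of days 5 to 50 ran from 8.49 to 9.16, and the highest of them was the day-15 abdomen of control population 2, replicate 2. In that abdomen 31 of the 138 transcripts were nearer to their day-1 than to their later median. It exceeded every other later abdomen in 59 of the 138 members, and in 4128 of the 16637 transcripts. On the scale from transcripts outside the members that abdomen stood at 0.13, where the 48 later abdomens ran from -0.09 to 0.15. Whether labels, age or handling lay behind these arrays was not tested. Unless stated otherwise, all were kept in the values given first, and the values without them are given beside the results they touch.

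**Figure D1:**
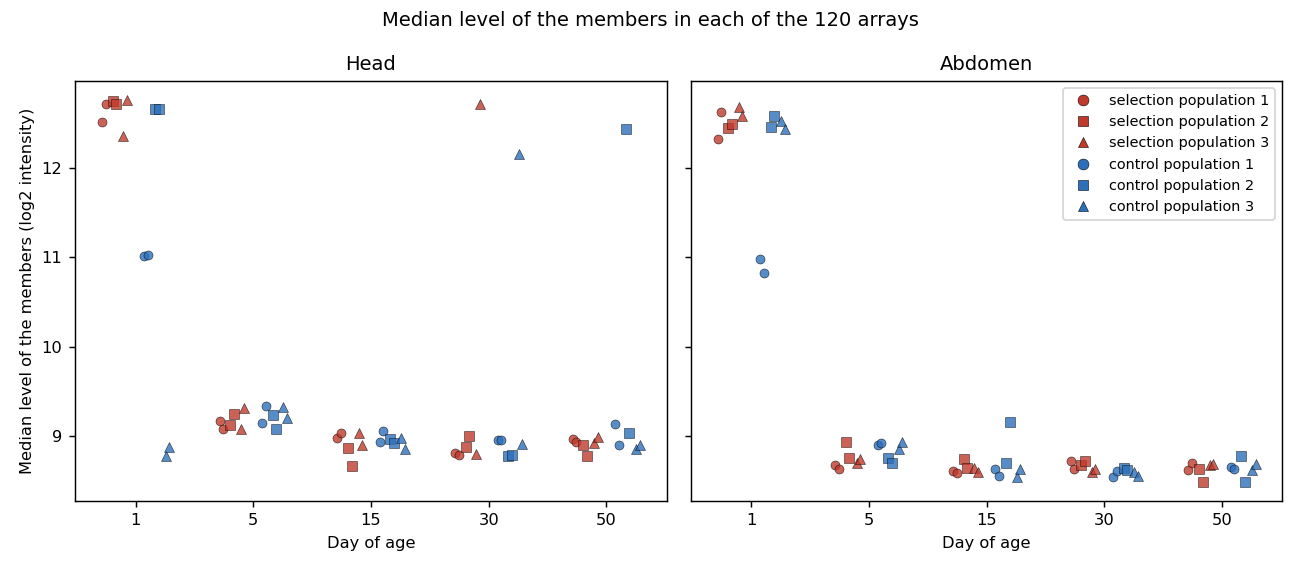
Median log2 intensity of the 138 transcripts in each of the 120 arrays (y axis) by day of age (x axis), heads left and abdomens right, with selection populations in red and control populations in blue. The later arrays form a band below 9.4 in both tissues, with 3 late heads between 12.15 and 12.72, 2 day-1 heads of control population 3 at 8.78 and 8.87, and control population 1 near 11 on day 1.

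The fall after day 1 was deep and of a similar order in both tissues. Its median over the 138 transcripts was -3.02 in heads, where it ran from -6.60 to -2.01, and -3.44 in abdomens, where it ran from -6.52 to -2.03. Over all 16637 transcripts the median difference between later days and day 1 was 0.01 in heads and 0.02 in abdomens. The fall exceeded 4 on the log2 scale in 37 transcripts in heads, in 47 in abdomens and in 20 in both. In 56 of the 138 transcripts the fall was deeper in head than in abdomen, and in 82 the tissues differed by at most 1. Across the 138 transcripts the falls in the 2 tissues were related with Pearson's r = 0.42 and Spearman's rho = 0.33, a description of transcripts that share the arrays of each tissue.

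The direction was the same in most populations taken one at a time. In heads the median fall was -3.21, -3.36 and -2.62 in selection populations 1, 2 and 3, and -1.46 and -2.85 in control populations 1 and 2. All arrays were kept in these values. Selection population 3 and control populations 2 and 3 each hold a high later head, which raises their later mean. Their values without it were not computed. In control population 3, whose 2 day-1 heads stood at the later level, the median difference was 0.48. In abdomens it was -3.44, -3.42 and -3.62 in the selection populations and -1.77, -3.39 and -3.48 in control populations 1, 2 and 3. In abdomens, 84 of the 138 transcripts had their lowest day-1 array above their highest later array, as did 862 of the 16637 transcripts (5.18%). In heads the count was 0 with all arrays. Leaving out the 5 opposite heads gave 79 of 138 members and 215 of all transcripts (1.29%). Without control population 1 on day 1 as well it was 130 of 138 members in heads, against 494 of all transcripts (2.97%), and 122 of 138 in abdomens, against 1316 (7.91%). Since this contrast chose the members, nothing is read from these shares.

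The transcript with the largest combined fall was FBtr0084056. In heads it lay between 7.86 and 12.50 in the 45 later arrays, against 12.97 to 15.27 in the 6 selection arrays of day 1. In abdomens its 48 later arrays lay between 7.96 and 11.77, against 14.42 to 14.96 in selection and 14.65 to 14.99 in control populations 2 and 3 on day 1. These groups did not overlap in either tissue, but the transcript was chosen for its fall, so nothing is read from that. The head groups leave out the control day-1 heads and the opposite later heads. Over all 6 populations the lowest average in day-1 heads was 8.07. Control population 1 differed between the tissues for this transcript on day 1, with heads at 12.66 and 12.22 and abdomens at 8.92 and 8.86. Both abdomens and the lower head lay within the range of the later arrays given here.

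The difference was -6.43 in heads and -6.34 in abdomens for FBtr0112410, and -6.17 in each for FBtr0290280. It was -5.72 in heads and -6.40 in abdomens for FBtr0070504, -5.52 and -5.58 for FBtr0079500, and -5.32 and -5.24 for FBtr0082782, heads first in each case. For FBtr0070504, the 10 day-1 abdomens outside control population 1 all lay between 14.75 and 14.97, and the 48 later abdomens between 8.10 and 9.12. FBtr0082782 kept the highest later level of the 6, with medians of 10.03 in heads and 10.15 in abdomens.

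At the edge of the rule the members passed into their neighbours without a gap. Just inside lay FBtr0088691 (-2.01 in head and -2.78 in abdomen), FBtr0082737 (-2.01 and -4.10) and FBtr0084513 (-2.02 and -3.06). Just outside lay FBtr0073891 (-1.99 and -5.11), FBtr0076124 (-1.99 and -2.41) and FBtr0079959 (-1.99 and -2.36). For all 6 the head value decided.

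**Figure D2:**
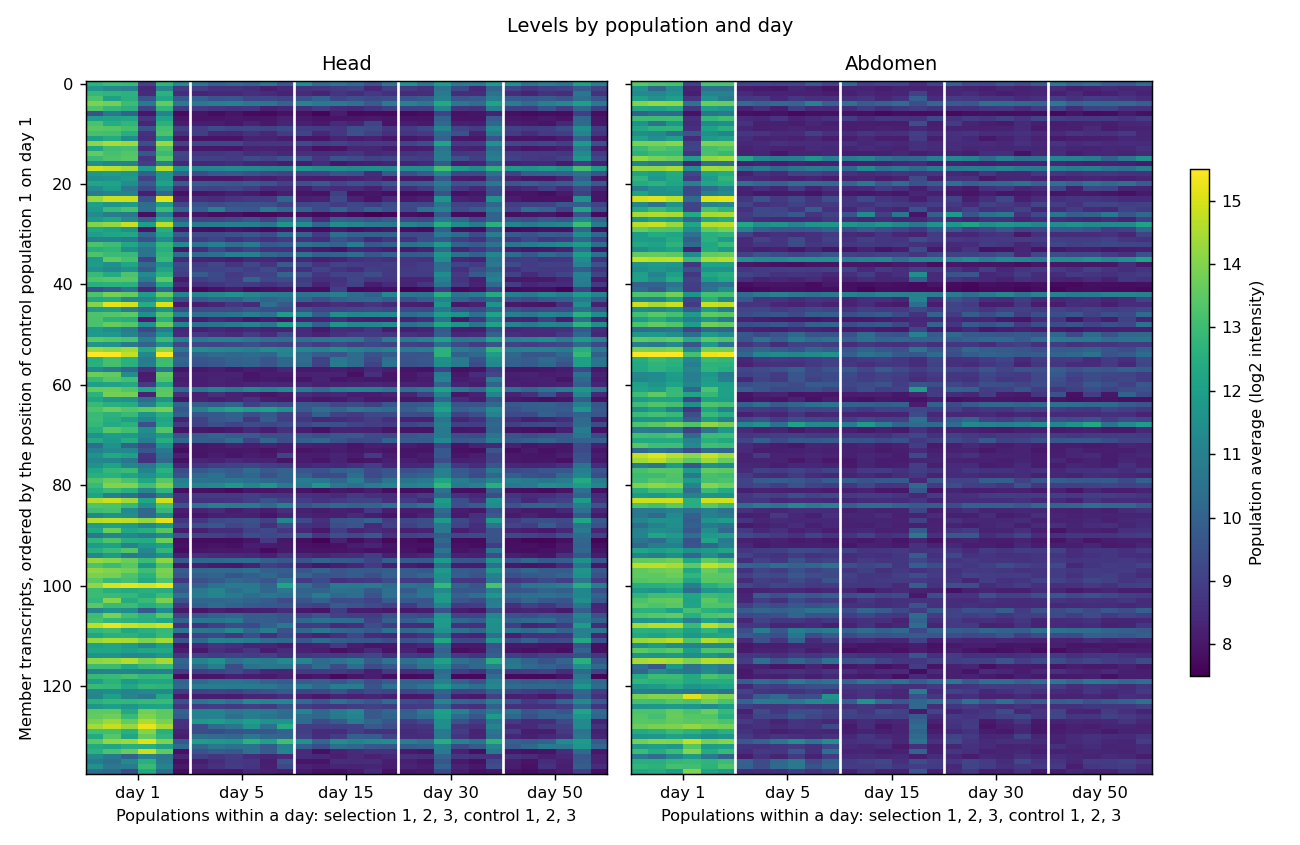
Average log2 intensity of each of the 138 transcripts (rows) in each population and day (columns), heads left and abdomens right. Within a day the columns are selection populations 1, 2 and 3 and then control populations 1, 2 and 3. Rows run from transcripts in which control population 1 was already low on day 1, at the top, to those in which it was as high as or higher than the other populations. The averages keep the opposite heads, seen as lighter columns on days 30 and 50 and as a dark column on day 1.

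Most of the fall was over by day 5, and a minority of transcripts took longer. The share of the day-1 excess left on day 5 was taken on the log2 scale, with the mean of days 15, 30 and 50 set to 0% and day 1 to 100%, from medians over populations. The opposite heads were left out of these shares throughout, and control population 1 was left out of the day-1 level. Its median over the 138 transcripts was 4.57% in heads and 3.50% in abdomens. Less than 10% was left in 92 transcripts in heads and in 119 in abdomens. More than 25% was left in 9 transcripts in heads and 5 in abdomens. In heads the largest shares were 54.6% for FBtr0080558, 52.7% for FBtr0071578 and 41.1% for FBtr0080559. In abdomens they were 38.6% for FBtr0290272, 31.7% for FBtr0074397 and 30.5% for FBtr0112529.

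The 3 slowest in heads had little left on day 5 in abdomens. FBtr0080558 had 4.24% left in abdomens, FBtr0071578 had 2.54% and FBtr0080559 had 2.29%. The 3 slowest in abdomens kept a share in heads too, with 38.9% left for FBtr0290272, 16.5% for FBtr0074397 and 17.3% for FBtr0112529. At the other end, some transcripts were lower on day 5 than later. FBtr0085328 had a share of -28.1% in heads and -13.3% in abdomens, FBtr0114500 and FBtr0114501 had -19.1% and -16.6% in heads, and FBtr0075443 and FBtr0087917 had -17.8% and -13.9% in abdomens. The shares in the 2 tissues were related across the 138 transcripts with r = 0.37 and rho = 0.33.

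Control population 1 on day 1 split the members. For each transcript its day-1 level was placed between its own mean of days 15, 30 and 50, set to 0%, and the median day-1 level of the other populations, set to 100%, without the opposite heads. In heads, 47 transcripts stood under 25%, 45 between 25% and 75%, and 46 over 75%. In abdomens these counts were 29, 64 and 45. The 25% and 75% limits were chosen after the values had been seen. The intermediate median of this population's arrays thus came from transcripts spread from the later level to the full day-1 level.

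The same transcripts tended to stand low, or high, in both tissues of control population 1. The positions in head and abdomen were related with r = 0.65 and rho = 0.61 across the 138 transcripts, a description over transcripts that share the arrays of each tissue. In both tissues at once, 19 transcripts stood under 25% and 32 over 75%, and 7 stood under 25% in one tissue and over 75% in the other. FBtr0085328 had the lowest position in each tissue. The ranges of the other day-1 heads given here leave out the opposite heads. Its heads of control population 1 read 8.97 and 9.11, against 12.28 to 13.11 in the other day-1 heads, and its abdomens 9.23 and 8.92, against 13.03 to 13.43. FBtr0085680 read 8.76 and 8.45 in abdomens, against 12.64 to 13.15, and FBtr0089053 read 8.39 and 8.45 in heads, against 10.58 to 11.77. With the opposite heads left out, control population 1 did not overlap the other populations in these sets, which were picked for their low positions.

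At the opposite end control population 1 was above the others. The ranges of the other day-1 heads again leave out the opposite heads. FBtr0083919 read 12.52 and 12.01 in its heads, against 8.68 to 10.57 in the other day-1 heads, and 13.94 and 14.02 in its abdomens, against 11.65 to 12.70. FBtr0072786 read 13.36 and 13.42 in abdomens, against 11.23 to 12.48. Without the opposite heads, both arrays of control population 1 exceeded every other day-1 array in 9 of the 138 transcripts in heads (6.52%, against 8.85% of all transcripts). In abdomens they did so in 8 (5.8%, against 10.9%). These shares were not above those of all transcripts. FBtr0071578 went opposite ways: its heads read 13.60 and 13.50, within the range of 12.75 to 13.98 of the other day-1 heads, and its abdomens 8.72 and 8.77, within the range of later abdomens.

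The position of a transcript in control population 1 on day 1 went with its speed in the other 5 populations. Across the 138 transcripts, the position and the share left on day 5 in the other populations were related with r = 0.65 and rho = 0.69 in heads and with r = 0.48 and rho = 0.53 in abdomens. Both quantities are scaled by the day-1 level of the same other populations, and no test is given. The 19 transcripts under 25% in both tissues had a median share left on day 5 of -0.96% in heads and -0.11% in abdomens. For the 32 over 75% in both tissues it was 14.9% in heads and 6.67% in abdomens. Why control population 1 differed was not tested.

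**Figure D3:**
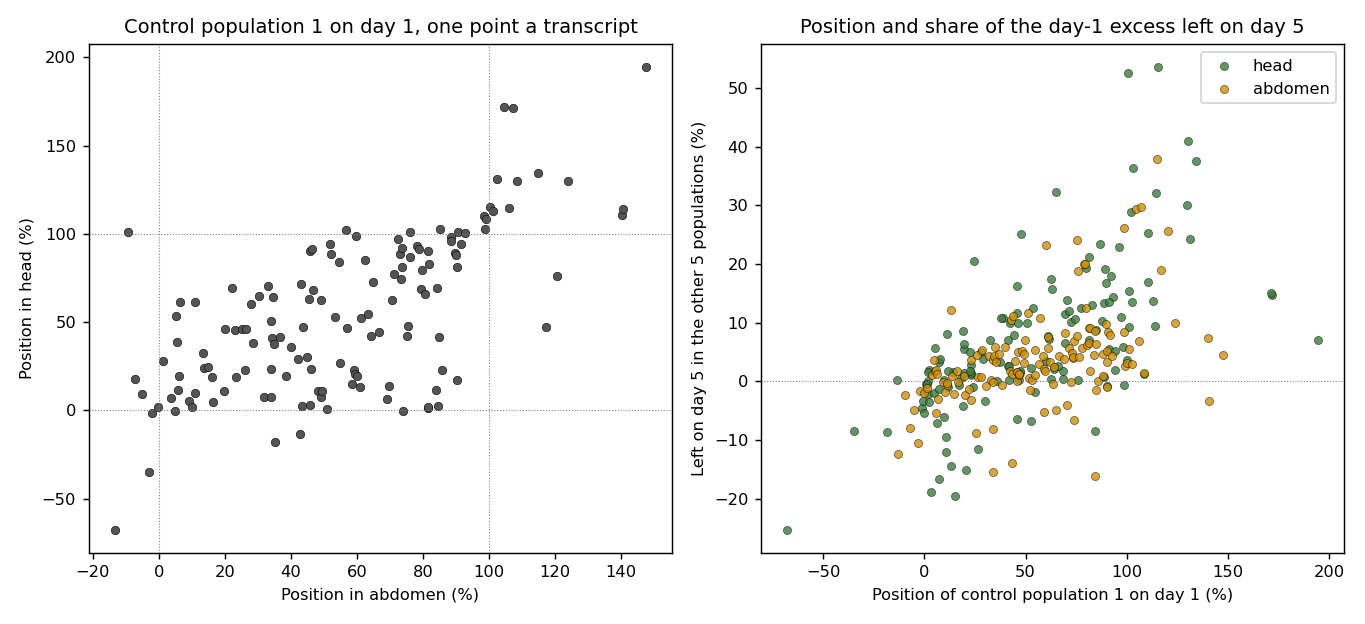
Left, the position of control population 1 on day 1 in head (y axis) and abdomen (x axis), in percent of the way from its own later level to the day-1 level of the other populations, with 1 point for each of the 138 transcripts. Right, the share of the day-1 excess left on day 5 in the other 5 populations (y axis, percent) against that position (x axis, percent), heads in green and abdomens in orange. Most transcripts low in control population 1 had little left on day 5, though among the 19 under 25% in both tissues the share reached 20.5% in heads. The largest shares belong to transcripts near or over 100%.

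Whether the members went on changing after day 5 was tested within days 5 to 50, which leaves day 1 out. Population averages were fitted with limma, and a transcript passed at an adjusted p of 0.05 over all 16637 transcripts. In heads, day 50 minus day 5 gave 3 falling and 0 rising members. The falling ones are 2.17% of the members, against 0.902% of all transcripts that fell, and 1.25% of all transcripts rose. The 3 opposite heads of days 30 and 50 are part of this fit. Without the opposite heads, 29 members fell (21.0% of them, against 2.72% of all transcripts) and 3 rose (2.17%, against 2.93%). Those heads were picked out by the level of the members themselves. Leaving them out can narrow the members' spread by that choice alone. Shares and p-values without them are thus given as a description, here and below. With all arrays, 14 members (10.1%, against 11.8% of all transcripts) had an unadjusted p under 0.05, a share near that of all transcripts. Without the opposite heads 70 had (50.7%, against 17.6%). Among the 472 transcripts that met the rule in abdomen alone, 50 fell (10.6%) and 33 rose (6.99%) at the adjusted p without those heads. Among the 73 that met it in head alone, 9 fell (12.3%) and 3 rose (4.11%). With all arrays, the count of 3 falling members became 1 without control population 1 and 9 without control population 2, which holds one of the opposite heads.

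FBtr0080558 fell furthest in heads. Its population averages lay between 8.31 and 11.26 on day 50, against 11.58 to 12.01 on day 5. The groups did not overlap, and the highest day-50 average was that of control population 2. Its level was 9.11 ± 1.11 on day 50 and 11.77 ± 0.181 on day 5 (SD, n = 6 populations), a difference of -2.66 (SE 0.454, limma adjusted p = 0.00324). Without the opposite heads the difference was -3.14 (SE 0.152, adjusted p = 2.88e-10), and the means of days 1, 5, 15, 30 and 50 were 14.05, 11.77, 10.00, 9.05 and 8.63. In abdomens the same transcript stood at 8.42 ± 0.165 on day 50 and 8.59 ± 0.203 on day 5, and did not pass.

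FBtr0290272 fell in both tissues. In heads its population averages were 9.75 to 11.80 on day 50, against 11.70 to 13.07 on day 5, with a difference of -1.78 (SE 0.374, adjusted p = 0.0154). In abdomens they were 8.23 to 8.95 on day 50, against 9.68 to 11.50 on day 5, with a difference of -2.18 (SE 0.296, adjusted p = 9.14e-04). The days overlapped slightly in heads and not in abdomens, and all 6 populations fell in each tissue. The head call was lost without control population 1, selection population 1 or selection population 2, where the difference was -1.85, -1.75 and -1.74. FBtr0071578 fell in heads, at 10.09 ± 0.812 on day 50 and 11.80 ± 0.391 on day 5, a difference of -1.71 (SE 0.315, adjusted p = 0.00556). That call was lost without control population 1, at -1.55.

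Without the opposite heads, further members passed in heads, and these are named after their values were seen. FBtr0079500 stood at 8.63 ± 0.261 on day 50 and 10.82 ± 1.06 on day 5, FBtr0079499 at 8.06 ± 0.240 and 10.06 ± 0.619, and FBtr0080559 at 8.41 ± 0.151 and 10.36 ± 0.207, day 50 first in each pair. These transcripts fell by 2.19, 2.00 and 1.95 in all 6 populations. All 6 transcripts of the 2 runs of neighbouring numbers FBtr0079499 to FBtr0079501 and FBtr0080557 to FBtr0080559 were among the 29. The 3 that rose were FBtr0085328, FBtr0084001 and FBtr0273263, by 0.79, 0.67 and 0.55. With all heads these 3 did not pass.

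In abdomens, day 50 minus day 5 gave 9 falling members (6.52%, against 0.535% of all transcripts) and 1 rising member (0.725%, against 0.577%). The median change over the 138 members was -0.09, and -0.01 over all transcripts. Beside FBtr0290272, the members with the largest falls were FBtr0077021, at 8.39 ± 0.131 on day 50 and 9.92 ± 0.999 on day 5, FBtr0074394, at 8.87 ± 0.299 and 10.20 ± 0.223, and FBtr0074397, at 8.69 ± 0.290 and 9.99 ± 0.499, day 50 first. These differed by -1.52 (adjusted p = 0.0119), -1.33 (adjusted p = 6.31e-04) and -1.30 (adjusted p = 0.00162), and fell in all 6 populations. FBtr0112529 fell by 1.14 and FBtr0082782 by 1.06. FBtr0077021 did not pass without selection population 2 (-1.45) or 3 (-1.38), nor FBtr0112529 without control population 3 (-1.09), selection population 1 (-1.11) or 3 (-1.11).

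The count of 10 in abdomens became 5 when selection population 3 was left out and 6 when control population 3 was. It became 16 when the high day-15 abdomen of control population 2 was left out. Among the 472 transcripts that met the rule in abdomen alone, 39 fell (8.26%) and 4 rose. Among the 73 that met it in head alone, 1 fell. The only rising member was FBtr0085328, the transcript that control population 1 had lowest on day 1. It averaged 10.22 ± 0.412 on day 50 and 9.26 ± 0.248 on day 5, a difference of 0.96 (SE 0.184, adjusted p = 0.0127), higher in 5 of 6 populations.

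Day 15 minus day 5 was tested in the same fit. In abdomens 6 members had fallen by day 15 (4.35%, against 0.475% of all transcripts) and 0 had risen (against 0.0721%). They were FBtr0290272 (-1.73), FBtr0082782 (-1.06), FBtr0074397 (-1.05), FBtr0074394 (-0.84), FBtr0081214 (-0.76) and FBtr0077362 (-0.67). Each of these falls was seen in all 6 populations, apart from that of FBtr0077362. Of the members named above for day 50, FBtr0077021 (-1.22, adjusted p = 0.0721) and FBtr0112529 (-0.92, adjusted p = 0.0676) did not pass, with differences as large as those of some members that did. The 6 calls became 0, 1 and 2 when selection population 3, 1 or 2 was left out in turn. They became 1 each time for control populations 1 and 3 and 13 for control population 2. In heads 0 members passed either way with limma, against 0.0481% of all transcripts falling and 0.012% rising, and 9 members (6.52%, against 6.8% of all transcripts) had an unadjusted p under 0.05. With the opposite heads left out, 13 members had fallen by day 15 in heads (9.42%, against 0.258%) and 0 had risen (against 0.0601%), led by FBtr0080558 (-1.77), FBtr0079500 (-1.65) and FBtr0079499 (-1.65). As above, these values are a description, since the members' own level picked the heads left out.

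The median level of the members told the same course over the populations one by one. On day 5 it exceeded the mean of days 15, 30 and 50 by 0.10 to 0.21 in the 6 populations in heads, without the opposite heads. In abdomens the differences ran from 0.00 to 0.20. These are medians over transcripts of population averages, and in abdomens the value nearest 0 belonged to control population 2, which holds the high day-15 array.

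**Figure D4:**
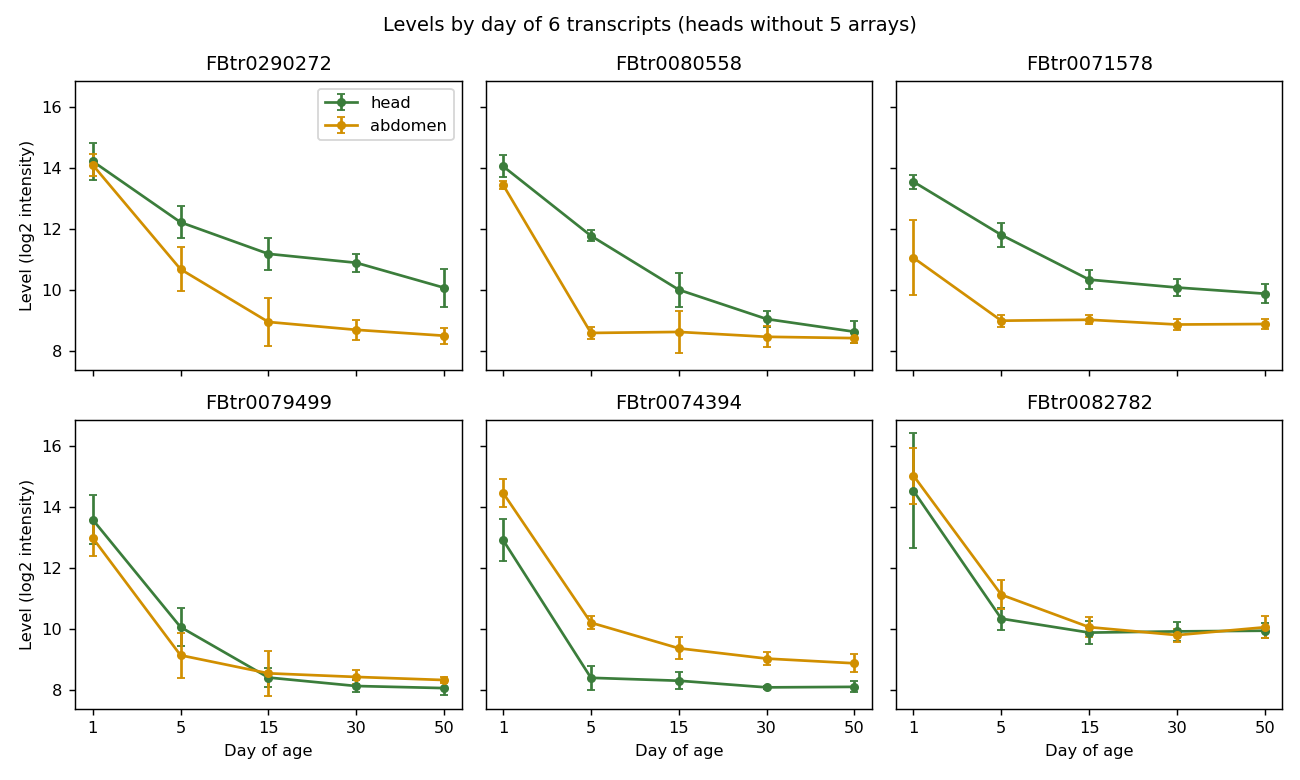
Mean log2 intensity by day of age for 6 transcripts, heads in green and abdomens in orange, with bars for the SD over 6 populations (5 populations for day-1 heads). The 5 opposite heads are left out. FBtr0080558 and FBtr0071578 had reached their later level by day 5 in abdomens and still fell in heads, FBtr0290272 fell over several days in both, and FBtr0074394 did so in abdomens.

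Selection and control populations were compared on the same members, since the rule pooled the regimes. Over days 5 to 50, 0 members and 0% of all transcripts passed with limma in heads, and likewise 0 members and 0% in abdomens. The members' median difference, selection minus control, was -0.12 in heads, -0.03 without the opposite heads, and -0.05 in abdomens. An unadjusted p under 0.05 was met by 9 members in heads (6.52%, against 21.2% of all transcripts), by 24 without the opposite heads (17.4%, against 19.3%) and by 2 in abdomens (1.45%, against 1.14%). None of these shares of the members stood clearly above that of all transcripts. FBtr0075465 had the smallest p in heads, at 10.01 ± 0.345 in selection and 10.52 ± 0.0748 in control (SD, n = 3 populations), with an adjusted p of 0.163. FBtr0079499 had the smallest p in abdomens, at 8.46 ± 0.0708 in selection and 8.76 ± 0.109 in control, with an adjusted p of 1.00.

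On day 1 the members' median level in heads was 12.64 ± 0.0887 in selection and 10.84 ± 1.92 in control populations, and in abdomens 12.53 ± 0.0903 and 11.97 ± 0.920, selection first. The control spread came from populations 1 and 3 in heads and population 1 in abdomens. No member passed with limma, and 0% of all transcripts did in either tissue. An unadjusted p under 0.05 was met by 56 members in heads (40.6%, against 7.06% of all transcripts), by 20 without the opposite heads (14.5%, against 3.01%) and by 9 in abdomens (6.52%, against 2.73%). Members were chosen as high on day 1, so an array at the later level on day 1 moves them more than other transcripts, and nothing is read from these shares. The median difference over members was 1.58 in heads. It was 0.70 without the opposite heads and -0.07 without control population 1 as well. In abdomens it was 0.46, and 0.03 without control population 1. When control population 2 was left out of the heads, 69 members passed as higher in selection (50% of them, against 1.57% of all transcripts). The controls left there were population 1 and population 3, whose day-1 heads were low.

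FBtr0079808 had the smallest p on day 1 in heads. Its level was 12.00 ± 0.388 in selection and 9.11 ± 1.16 in control populations, a difference of 2.89 (SE 0.527, adjusted p = 0.675). The populations did not overlap. Without the opposite heads it was 2.43 (adjusted p = 0.977).

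Heads and abdomens were also compared on the same members, on day 1 and later. Over all transcripts, head minus abdomen had a median of -0.26 on day 1 as deposited, of 0.00 after quantile normalization over all arrays and of 0.17 after centring each array on its median, so differences are best read against that shift. A member passed at an adjusted p of 0.05 and at least 2-fold. On day 1, 3 members were higher in head (2.17%, against 7.14% of all transcripts) and 22 lower (15.9%, against 17.8%). Neither share was above that of all transcripts. With the opposite heads left out 19 were higher (13.8%, against 7.51%) and 15 lower (10.9%, against 19.1%). Under either other scaling, with all heads, 8 were higher (5.8%) and 14 lower (10.1%). Of all transcripts, 9.92% were higher and 9.69% lower after quantile normalization, and 10.9% and 9.8% after centring. Day-1 levels of both tissues entered the rule, so neither these counts nor those of later days are free of it.

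The largest day-1 differences were transcripts lower in head. FBtr0079808 averaged 10.56 ± 1.76 in heads, with populations from 8.19 to 12.36, and 14.68 ± 0.361 in abdomens, from 14.15 to 15.15 (SD, n = 6 populations), a difference of -4.13 (SE 0.459, adjusted p = 5.66e-05). FBtr0075443 stood at 9.97 ± 1.59 in heads and 14.09 ± 0.870 in abdomens, and FBtr0072463 at 9.96 ± 1.38 and 14.06 ± 0.461, heads first, differences of -4.12 and -4.10. In each of the 3 transcripts all 6 populations were lower in head, and without the opposite heads the differences were -3.71, -3.66 and -3.78. FBtr0077021 (-3.29), FBtr0084001 (-2.90) and FBtr0112398 (-2.69) were also lower in head.

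The 3 members higher in head on day 1 were FBtr0075471 (1.62), FBtr0071578 (1.85) and FBtr0114539 (2.43). Each was higher in 5 of 6 populations, control population 3 being the one whose day-1 heads were low. Without the opposite heads FBtr0114539 and FBtr0114540, which carry neighbouring numbers, led the 19. FBtr0114539 stood at 14.67 ± 0.340 in heads (n = 5 populations) and 11.26 ± 0.751 in abdomens (n = 6), and the fit with population as a block gave a difference of 3.53. FBtr0114540 stood at 14.97 ± 0.449 and 12.35 ± 0.704, heads first, with a difference of 2.74.

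On days 5 to 50 the tissues differed in more members. Higher in head were 40 (29.0%, against 11.9% of all transcripts) and lower 8 (5.80%, against 24.9%). Leaving out the opposite heads, 33 were higher (23.9%, against 11.9%) and 10 lower (7.25%, against 24.6%). After quantile normalization 49 were higher (35.5%, against 15.9%) and 7 lower (5.07%, against 14.7%), and after centring 57 were higher (41.3%, against 17.1%) and 4 lower (2.9%, against 15.7%). Of the 472 transcripts that met the rule in abdomen alone, 290 were higher in head.

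FBtr0076956 led those higher in head on days 5 to 50, with 11.24 ± 0.303 in heads and 9.11 ± 0.196 in abdomens, a difference of 2.14 (SE 0.123, adjusted p = 1.19e-09). FBtr0075471 followed at 10.24 ± 0.222 and 8.13 ± 0.163, FBtr0290272 at 11.30 ± 0.407 and 9.20 ± 0.221, and FBtr0082757 at 10.29 ± 0.203 and 8.26 ± 0.0788, heads first in each pair. Their differences were 2.11, 2.10 and 2.03, and the populations of the 2 tissues did not overlap. FBtr0114540 (1.87) and FBtr0083254 (1.81) came next.

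Lower in head were FBtr0084001, at 8.83 ± 0.319 in heads and 11.33 ± 0.0812 in abdomens, with a difference of -2.5 (SE 0.108, adjusted p = 5.61e-11), FBtr0089586 (-1.76) and FBtr0075443 (-1.74). The neighbours FBtr0071760 and FBtr0071759 (-1.52 and -1.42) and FBtr0077584 (-1.33) were lower too. After centring, FBtr0071759 (-0.99) and FBtr0077584 (-0.89) no longer met the 2-fold limit. FBtr0084001 and FBtr0075443 were thus lower in head both on day 1 and later.

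**Figure D5:**
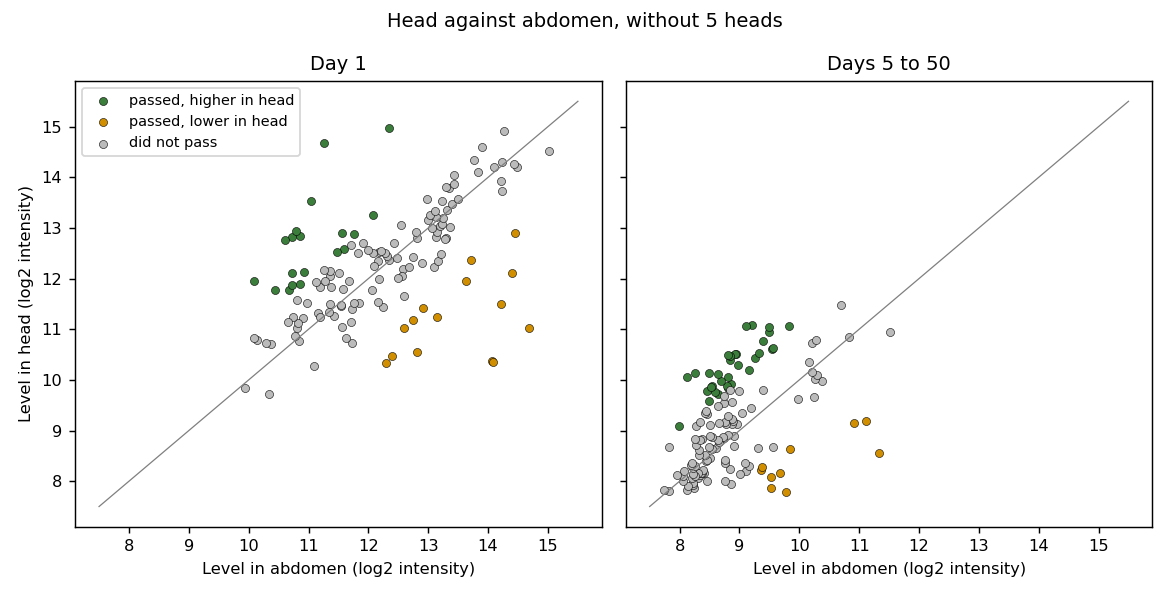
Mean log2 intensity of each of the 138 transcripts in heads (y axis) against abdomens (x axis), on day 1 left and on days 5 to 50 right, without the 5 opposite heads. Green points passed as higher in head (19 and 33), orange points as lower in head (15 and 10), and grey points did not pass. The line marks equal levels.

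Some members carried consecutive FlyBase transcript numbers, which the rule did not use. There were 12 runs with 30 members. Of the 101 members whose next number is on the array, 18 had a member there. No matching share over all transcripts was computed, so nothing is read from this count. The longest run was FBtr0074953 to FBtr0074956, with 4 transcripts whose differences lay between -4.18 and -3.64 in heads and between -4.82 and -4.14 in abdomens. Across the 60 arrays of a tissue the lowest correlation between any 2 of its members was 0.94 in heads and 0.97 in abdomens, over arrays that include the fall after day 1 that all members share. Transcripts of 1 gene can have neighbouring numbers and share probes, so such members may not be separate measurements. Counting each run once, the 138 members make 120.

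The 4 runs of 3 are described by the share left on day 5, without a test. In FBtr0079499 to FBtr0079501 the share left on day 5 in heads was 30.4%, 32.6% and 24.0%, and in FBtr0080557 to FBtr0080559 it was 25.6%, 54.6% and 41.1%. In FBtr0113226 to FBtr0113228 it was -16.0%, -11.4% and -15.6%, so these 3 were lower on day 5 than later in heads. In abdomens their shares were 3.85%, 0.651% and 4.07%. The run FBtr0114499 to FBtr0114501 was likewise lower on day 5 in heads, at -9.29%, -19.1% and -16.6%, with -1.36%, 3.33% and 0.119% in abdomens.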

How the data were processed

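The deposited values are log2 intensities from NimbleGen arrays labelled with Cy3, which the authors made with RMA, per the submitters' processing notes. RMA corrects background, normalizes by quantiles and gives 1 value per transcript. The sources used here do not give its version, the set of arrays normalized together or the annotation, and the log2 scale was read from the values. Precision is limited by the number of arrays, since arrays have no read depth.

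The members and lists were chosen with earlier results of these data known. Members were taken from all 120 arrays as deposited. For tests, both biological replicates were averaged within each population and day, and populations served as replicates. limma 3.58.1 in R 4.3.3 was fitted with an intensity trend to all 16637 transcripts, two-sided, with Benjamini-Hochberg adjustment at 0.05. Effects of day were fitted over the 24 averages of days 5 to 50 with population, day and regime by day. Regimes were compared over 6 population averages, and tissues over 12 averages with population as a block and at least a 2-fold difference. P-values for regimes measure the spread between these populations. Those for day and tissue measure how unevenly the change ran across populations, since population was in those fits. Before use the fits were run on simulated arrays with known changes, to check that the size of a change was recovered. The simulated noise was independent, without population effects or deviant arrays, so error rates in the present data were not checked.

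Named were the 6 largest falls, up to 6 members each way per contrast that passed alike in every population, the 3 transcripts on each side of the threshold, the 3 highest and lowest shares left on day 5 and positions of control population 1, and runs of consecutive numbers. Lists of cuticle, chitin, pigment, ecdysone, immune, fat body, muscle, neural, photoreceptor and eggshell genes were prepared. They could not be used, because 0 members tie to a gene in the RefSeq table. Selection and control populations were set up in pairs, per the labels, which do not say that a shared number marks a pair. Correlations of the deviations of populations with the same number were 0.36, 0.17 and 0.52 for heads of days 5 to 50 and 0.01, 0.26 and 0.53 for abdomens. On day 1 they ran from -0.10 to 0.08. The title of 1 day-15 head of control population 3 gives another replicate number than its characteristics, which were followed. Alternatives were other scalings, a filter on dim transcripts, single replicates, left-out populations and arrays, and the replicate block.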

Additional observations from a re-analysis of the deposited data

Results flagged for a closer look

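In 5 of the 20 groups of 6 arrays, 1 array's median level over the 138 transcripts lay far from the others of its group. The rule used flags about 1 in 20 groups when the values are independent and normally distributed. These arrays are replicates within populations, so that rate does not apply here. Of the flagged arrays, 3 were the heads described above as opposite to their label, at 12.72 (selection, day 30), 12.15 (control, day 30) and 12.43 (control, day 50). The fourth was the day-15 abdomen of control population 2 at 9.16. The fifth was the day-50 abdomen of selection population 2, replicate 2, at 8.49, the lowest of its group, whose other arrays lay between 8.62 and 8.70.

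In 4 of the 28 groups of 6 population averages examined for members that passed with age, 1 population stood apart. FBtr0082782 in day-5 abdomens was lowest in selection population 1, at 10.19. FBtr0290272 in day-15 abdomens was highest in control population 2, at 10.55. FBtr0080558 and FBtr0071578 in day-50 heads were highest in control population 2, at 11.26 and 11.72. The last 3 are averages that hold one of the arrays named above. Of the 37 members that passed for day 50 minus day 5 in abdomens, in heads or in heads without the opposite arrays, 0 moved in opposite directions in every population of the 2 tissues.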

How the results depend on the processing

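The rule kept 81 transcripts with means in place of medians, of which 80 are members, 234 with a threshold of -1.5 and 75 with one of -2.5. It kept 118 to 150 when 1 population was left out. The median fall of the 138 members stayed between -3.20 and -2.17 in heads and between -3.53 and -3.10 in abdomens under all settings tried. Called for day 50 minus day 5 in heads (3 members) were 1 to 9 without 1 population, 0 with biological replicate 1 alone, 6 with replicate 2 alone, 32 without the opposite heads and 1 when day 1 entered the fit. Day 15 minus day 5 in heads gave 13 in place of 0 without the opposite heads, and 0 without any 1 population. For day 50 minus day 5 in abdomens (10 members) the count was 5 to 14 without 1 population, 2 with replicate 2 alone, and 16 without the high day-15 abdomen of control population 2, an alternative added after seeing the data, as was leaving out control population 1 on day 1 together with the opposite heads. For day 15 minus day 5 in abdomens (6 members) it was 0 to 13 without 1 population and 0 with replicate 2 alone. Only transcripts with a mean above the median left few members to test, and gave 0 and 0 in abdomens and 8 on days 5 to 50 between tissues. Selection minus control gave 0 in every setting but day-1 heads, with 0 to 69 without 1 population. The cause of these changes was not tested beyond the arrays left out.

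With the population number as a replicate block, the 4 comparisons of selection with control stayed at 0 members. A replicate block over single arrays gave 6 members for day 50 minus day 5 in heads, 23 in abdomens, and 17 for day 15 minus day 5 in abdomens. Tissue counts without the block were 22 on day 1 and 48 later. For the named members, 399 of 448 recomputed tests kept their side of the threshold, 49 no longer passed and 0 changed direction. Members near the low end of the intensity scale on later days have little room to show a further fall.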

Other observations

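The day-15 abdomen of control population 2, biological replicate 2, held raised levels of some members and lower levels of others than the other replicate. FBtr0072247 read 11.55 there, against 8.48 in the other replicate, with a median of 8.59 over later abdomens and 11.76 on day 1. FBtr0073329 read 12.87, against 10.05 in the other replicate, and FBtr0084056 read 11.77 against 9.04. The other way, FBtr0073591 read 9.59 against 11.70, FBtr0089586 read 9.33 against 11.24 and FBtr0071760 read 9.42 against 11.12. Of the 138 members, 31 lay nearer to day 1 in that array. Of these, 11 were among the 32 that control population 1 had over 75% in both tissues on day 1, and 3 among the 19 it had under 25%. Nothing is read from these counts.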
